A study of Homo sapiens with 6 samples.

Results

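The human mitochondrial genome carries 37 genes, and all 37 were found among the 60623 gene rows of each library by the prefix MT- of their symbols. They comprise 13 mRNAs, 2 rRNAs and 22 tRNAs, and the mRNAs are described here by respiratory complex and by place on the genome, apart from rRNA and tRNA. The libraries came from H9 cells, a human embryonic stem cell line, taken through a hepatocyte differentiation to day 19 and labelled hepatoblasts. HFPO-TA (the trimer acid of hexafluoropropylene oxide, a fluorinated ether acid) was given to the cells of 3 libraries, and 0.1% DMSO to those of the other 3 as vehicle. For HFPO-TA the labels print a dose of 10 in a garbled unit, which is left out here, and they give a DMSO share for the control alone. Nothing in the labels tells whether replicates were grown apart, so that the p-values below speak of variation among libraries that may be technical. A single cell line stands behind all of them. The question is how the transcripts of the organelle stood in cells given a compound whose liver toxicity the series title names.

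Mitochondrial DNA is a compact circle that is transcribed from both strands into long precursors, from which the tRNAs are cut like punctuation so that mRNAs and rRNAs are released. Its mRNAs code for core subunits of complex I, complex III and complex IV of the respiratory chain and of the ATP synthase, complex V. All other subunits and the proteins of the expression machinery come from nuclear genes, while the rRNAs and tRNAs of that machinery are mitochondrial. Because the genes of a strand share a precursor, their unequal steady levels are largely set after transcription. Hepatocytes are rich in mitochondria, which burn fatty acids and house part of the urea cycle and of gluconeogenesis.

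Values were the authors' deposited TPM, length-scaled transcript shares. They put genes on one scale, but a comparison between genes is uncertain for short reading frames, as described below. The column header names FPKM, but the columns summed to between 995690 and 996186. Sequencing depth cannot be had from TPM and is unknown here, so counting error is not stated. The libraries listed 15383 to 15905 genes at 1 TPM or more. Defining markers of hepatoblasts and hepatocytes were present, with AFP, the fetal serum protein, at a mean of 65021 TPM with HFPO-TA and 76581 TPM with DMSO. All 12 markers of that list were above the filter on low values, and their summed level ran from 99284 to 106672 TPM with HFPO-TA and from 111921 to 123999 TPM with DMSO. Most of that sum was AFP. The log2 fold change, HFPO-TA over DMSO, was above 0 for 3 of the 12 and below 0 for 9. In the limma fit described below FGB alone was called, as lower (-0.97, adjusted p = 0.0104), where 0.306% of all tested genes were called lower. Markers of other cell types were partly present. Of the 5 neural markers SOX1 was listed at 0 in all 6 libraries, while STMN2 stood between 17.5 and 37.2 TPM with HFPO-TA and between 27.3 and 31.9 TPM with DMSO. TUBB3, also neural, averaged 14.1 TPM with HFPO-TA and 14.6 TPM with DMSO. The neural markers MAP2 and PAX6 stayed below 1 TPM in all 6 libraries. Of the 6 muscle and heart markers MYOG was listed at 0 in all 6 libraries, while TNNT2 stood between 8.92 and 9.85 TPM with HFPO-TA and at 9.46 TPM or more with DMSO. MYH6 and MYH7 stayed below 1 TPM in all 6 libraries. The 7 stromal markers summed to 2159, 1027 and 999 TPM in the HFPO-TA libraries and to 1883, 1220 and 1406 TPM in the DMSO libraries. Replicate 1 was the highest of each group, and the part of these markers in the results was not tested. As these are bulk samples, fewer cells of a type and less RNA per cell cannot be told apart. A letter in the file names, which the labels do not explain, parts replicate 1 from replicates 2 and 3 in both groups. Values within replicate 1 (1 library against 1) and within replicates 2 and 3 (2 against 2) are therefore given beside the pooled ones.

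Short stretches of reference sequence show where neighbouring members share bases, where a nuclear copy nearly equals a member, and which tRNA had values. All are from GENCODE 29 transcripts (GRCh38), 5′ to 3′. MT-ATP8 and MT-ATP6 lie on one mRNA and overlap by 46 bases, and MT-ND4L and MT-ND4 on another, overlapping by 7. The ends and starts of these reading frames are given first, with shared bases in capitals.
MT-ATP8 end, chrM:8513-8572, plus strand: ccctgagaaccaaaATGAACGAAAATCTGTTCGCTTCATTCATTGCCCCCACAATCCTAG
MT-ATP6 start, chrM:8527-8586, plus strand: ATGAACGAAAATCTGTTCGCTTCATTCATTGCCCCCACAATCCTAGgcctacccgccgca
MT-ND4L end, chrM:10707-10766, plus strand: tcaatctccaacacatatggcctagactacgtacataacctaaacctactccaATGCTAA
MT-ND4 start, chrM:10760-10819, plus strand: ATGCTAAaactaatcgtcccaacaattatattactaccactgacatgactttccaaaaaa

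MTCO1P12 is a nuclear copy of MT-CO1 on chromosome 1, from 631074 to 632616. The 2 sequences differed at 21 of 1543 aligned positions (98.6% identical). The window of 80 bases shown here holds 4 of them, in capitals.
MT-CO1, chrM:6220-6299, plus strand: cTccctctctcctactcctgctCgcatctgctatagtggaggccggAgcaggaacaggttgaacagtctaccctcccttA
MTCO1P12, chr1:631390-631469, plus strand: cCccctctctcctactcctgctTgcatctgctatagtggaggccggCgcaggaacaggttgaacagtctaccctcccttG

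MT-TN, the tRNA for asparagine, was the one tRNA with values above 0. It is cut from the light-strand transcript, and its anticodon is in capitals, in DNA letters.
MT-TN, chrM:5657-5729, minus strand: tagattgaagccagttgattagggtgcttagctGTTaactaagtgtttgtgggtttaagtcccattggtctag

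Mitochondrially encoded genes took 6.80%, 6.79% and 6.30% of all TPM in the HFPO-TA libraries and 6.27%, 6.24% and 6.45% in the DMSO libraries. The HFPO-TA replicate 3 library lay within the DMSO range, and the groups overlapped (exact permutation test, 2-sided, p = 0.2, where 3 libraries against 3 cannot go below 0.1). The difference was 0.53 percentage points within replicate 1 and 0.20 within replicates 2 and 3. The 13 mRNAs held 5.72% ± 0.23 of all TPM with HFPO-TA and 5.39% ± 0.14 with DMSO (SD, n = 3 each). The 2 rRNAs held 0.839% ± 0.060 with HFPO-TA and 0.847% ± 0.028 with DMSO. Of the 37 genes, 16 passed the filter of at least 1 TPM in 3 or more libraries, namely all mRNAs, both rRNAs and MT-TN. The other 21, all tRNAs, were listed at 0 in every library. Whether the library kit kept rRNA and short RNA is not given in the sources used here. The rRNA and tRNA values therefore describe the libraries and not the content of the organelle.

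**Figure D1:**
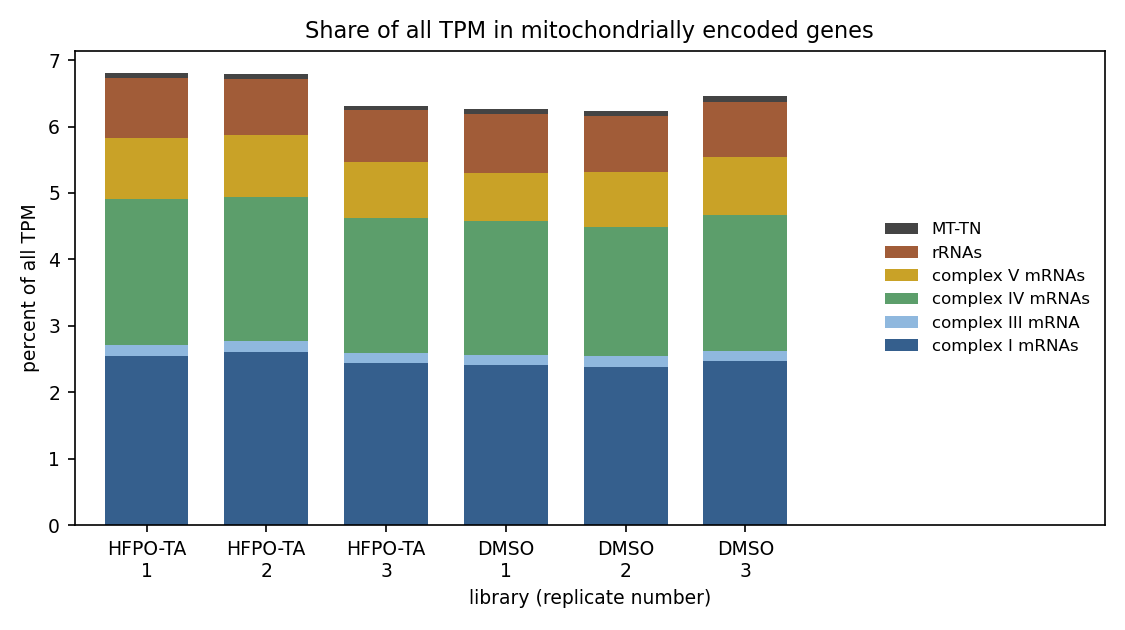
Stacked bars give the percent of all TPM held by mitochondrially encoded genes in each library, split into mRNAs by respiratory complex, rRNAs and MT-TN. The bars of HFPO-TA replicates 1 and 2 reach 6.80% and 6.79%, and the other 4 lie between 6.24% and 6.45%.

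The mRNAs differed in level by a factor of 5.64 to 6.61 between the highest and the lowest within an HFPO-TA library and of 6.04 to 6.57 within a DMSO library. The order from high to low in the HFPO-TA group was MT-CO1, MT-CO2, MT-ND4L, MT-ATP8, MT-ND4, MT-ND6, MT-ND5, MT-CO3, MT-ND2, MT-ATP6, MT-ND3, MT-ND1 and MT-CYB. In the DMSO group the first 8 places were the same, followed by MT-ATP6, MT-ND3, MT-ND2, MT-CYB and MT-ND1. Neighbours in this order were apart, with no overlap of their library values, in 6 of 12 steps with HFPO-TA and in 5 of 12 with DMSO. With HFPO-TA the steps that overlapped were MT-ND4L to MT-ATP8, the run from MT-ND4 to MT-CO3, MT-ND2 to MT-ATP6, and MT-ND1 to MT-CYB. MT-ND4L and MT-ATP8, of 297 and 207 bases, stood above MT-ND4 and MT-ATP6, with which they share an mRNA. Their places in the order are therefore not to be read as amounts of molecules. The level did not fall steadily along the heavy-strand transcript: MT-ND1, the first mRNA after the rRNAs, stood among the lowest, and MT-CO1, behind it, at the top. Among all genes, 11 of the 37 were within the 50 most abundant and 12 within the 100 most abundant by mean TPM.

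**Figure D2:**
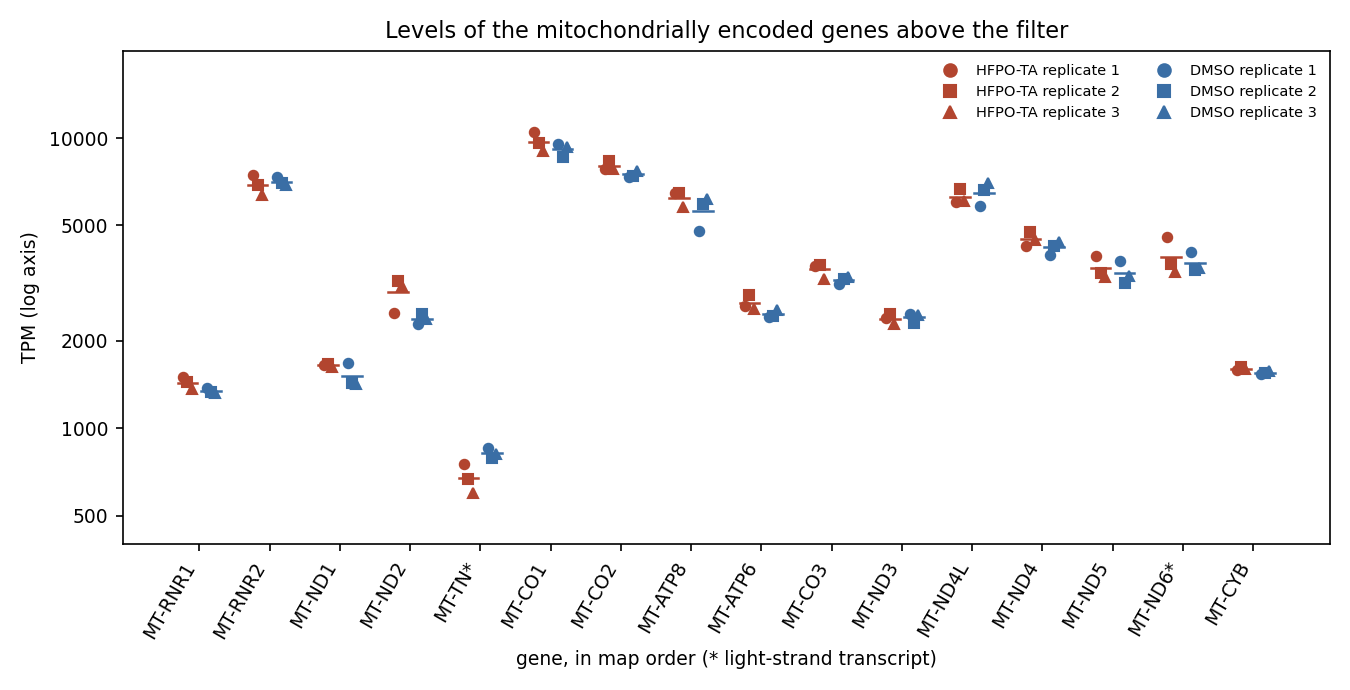
TPM on a log axis are plotted for the 16 genes above the filter in map order, with HFPO-TA left of DMSO, 1 point per library and a line at each group's mean. Among the mRNAs MT-CO1 stands highest, at means of 9734 TPM with HFPO-TA and 9187 TPM with DMSO, and the groups do not overlap for MT-ND2, MT-TN, MT-CO2, MT-ATP6 and MT-CYB.

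No mitochondrially encoded gene passed the test between HFPO-TA and DMSO. The test was limma on log2(TPM + 1) over all 15664 genes above the filter, with Benjamini-Hochberg adjustment and a threshold of 0.05, and it called 0.492% of all genes, 0.185% higher and 0.306% lower. Of the 13 mRNAs 0 were called in either direction, and at an unadjusted p under 0.05 there were 2 (MT-ND2 and MT-ATP6, both with higher means), against 5.45% of all genes in that direction. The log2 fold changes of the mRNAs, HFPO-TA over DMSO, ran from -0.045 to 0.30 with a median of 0.093, beside a median of -0.0076 over all tested genes. Above 0 were 11 of the 13, beside 48.3% of all tested genes. The count was 11 of 13 within replicate 1 and also within the means of replicates 2 and 3. Below 0 were MT-ND1 and MT-ND3 within replicate 1, and MT-ND3 and MT-ND4L within replicates 2 and 3. In replicate 3 alone MT-CO1, MT-CO3, MT-ATP8, MT-ND3, MT-ND4L, MT-ND5 and MT-ND6 were lower with HFPO-TA, and the other mRNAs higher. The 13 mRNAs summed there to 54404 TPM with HFPO-TA and 55248 TPM with DMSO. In replicates 1 and 2 their sum was higher with HFPO-TA. In 4 mRNAs (MT-ND2, MT-CO2, MT-ATP6 and MT-CYB) every HFPO-TA library lay above every DMSO library, and in 0 below, beside 8.55% of all tested genes above and 9.4% below.

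Complex I, which takes electrons from NADH, has 7 mitochondrial subunits, all in its membrane arm, and their genes summed to between 24285 and 25918 TPM with HFPO-TA and between 23791 and 24567 TPM with DMSO. MT-ND2 stood at 2503, 3231 and 3086 TPM in the HFPO-TA libraries and at 2283, 2477 and 2383 TPM in the DMSO libraries. All HFPO-TA values were higher, replicate 1 by the least. The mean was 2940 ± 385 TPM with HFPO-TA and 2381 ± 97.1 TPM with DMSO (SD, n = 3 each), a log2 fold change of 0.30 (SE 0.093, adjusted p = 0.254). The log2 difference was 0.13 within replicate 1 and 0.38 within replicates 2 and 3. Without HFPO-TA replicate 1 MT-ND2 was called higher (0.41, adjusted p = 0.0161), in a fit that called 1.86% of all genes and 0.6% as higher. It was also called from replicates 2 and 3 alone (adjusted p = 0.0253), where 1.42% of all genes were, 0.511% as higher and 0.907% as lower.

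MT-ND1, which lies at the joint of the membrane arm and the peripheral arm, stood at 1657, 1666 and 1625 TPM with HFPO-TA and at 1680, 1431 and 1422 TPM with DMSO. The DMSO replicate 1 library was above all HFPO-TA libraries, and the other DMSO libraries below them. Its log2 difference was -0.020 within replicate 1 and 0.21 within replicates 2 and 3, and 0.13 pooled (SE 0.069, adjusted p = 0.513). MT-ND4 and MT-ND5, large subunits that resemble ion antiporters, had log2 fold changes of 0.093 (SE 0.059) and 0.054 (SE 0.082) with overlapping groups. MT-ND3, a small subunit next to the quinone site, stood at 2390 ± 91.5 TPM with HFPO-TA and 2418 ± 96.4 TPM with DMSO. MT-ND4L, a small subunit of the membrane arm, stood at 6258 ± 357 TPM with HFPO-TA and 6469 ± 595 TPM with DMSO (SD, n = 3 each). Both had log2 fold changes below 0 (-0.017 and -0.045), which turned sign when single libraries were left out.

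MT-ND6 is the one mRNA of the light-strand transcript. It stood at 4582, 3694 and 3446 TPM with HFPO-TA and at 4056, 3525 and 3571 TPM with DMSO, with replicate 1 the highest library of each group. MT-ND5, its neighbour on the opposite strand, was also highest in replicate 1 of each group, at 3936 TPM with HFPO-TA and 3765 TPM with DMSO. The ratio of MT-ND6 to MT-ND5 was 1.09 ± 0.066 with HFPO-TA and 1.08 ± 0.022 with DMSO (SD, n = 3 each; exact permutation test, p = 0.9). The log2 ratio of MT-ND6 to the mean of the 12 heavy-strand mRNAs was 0.28, -0.084 and -0.086 in the HFPO-TA libraries and 0.22, 0.0089 and -0.021 in the DMSO libraries. The groups overlapped (difference -0.031, exact permutation test, p = 0.7), and the difference was 0.065 within replicate 1 and -0.079 within replicates 2 and 3. Whether the libraries kept strand is not given in the sources used here, so reads from MT-ND6 cannot be told apart from antisense RNA of the heavy-strand transcript. The same holds for MT-TN, described further on.

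Complex III, which passes electrons to cytochrome c, has a single mitochondrial subunit, cytochrome b. Its gene MT-CYB stood at 1591, 1628 and 1602 TPM with HFPO-TA and at 1534, 1556 and 1577 TPM with DMSO. The groups did not overlap, at a difference of 3.30% of the DMSO mean (log2 fold change 0.047, SE 0.041, adjusted p = 0.724).

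Complex IV, cytochrome c oxidase, takes its 3 core subunits from the organelle, and MT-CO1 and MT-CO2 carry its metal centres. MT-CO2 stood at 7819, 8324 and 7837 TPM with HFPO-TA and at 7350, 7403 and 7730 TPM with DMSO. The groups did not overlap (log2 fold change 0.093, SE 0.043, adjusted p = 0.449), and the difference was 0.089 within replicate 1 and 0.094 within replicates 2 and 3. MT-CO1 averaged 9734 ± 751 TPM with HFPO-TA and 9187 ± 485 TPM with DMSO, and MT-CO3 3527 ± 213 TPM with HFPO-TA and 3249 ± 92.9 TPM with DMSO (SD, n = 3 each). Both overlapped between groups (adjusted p = 0.690 and 0.446).

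Complex V makes ATP from the proton gradient, and MT-ATP6 and MT-ATP8 code for parts of its membrane sector. MT-ATP6 stood at 2634, 2880 and 2585 TPM with HFPO-TA and at 2426, 2431 and 2548 TPM with DMSO. The groups did not overlap (log2 fold change 0.13, SE 0.053, adjusted p = 0.394), with differences of 0.12 within replicate 1 and 0.13 within replicates 2 and 3. MT-ATP8 stood at 6458, 6475 and 5784 TPM with HFPO-TA and at 4782, 5907 and 6152 TPM with DMSO. The DMSO replicate 1 library was the low one, and the log2 difference was 0.43 within replicate 1 and 0.022 within replicates 2 and 3 (0.16 pooled, SE 0.097, adjusted p = 0.589).

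**Figure D3:**
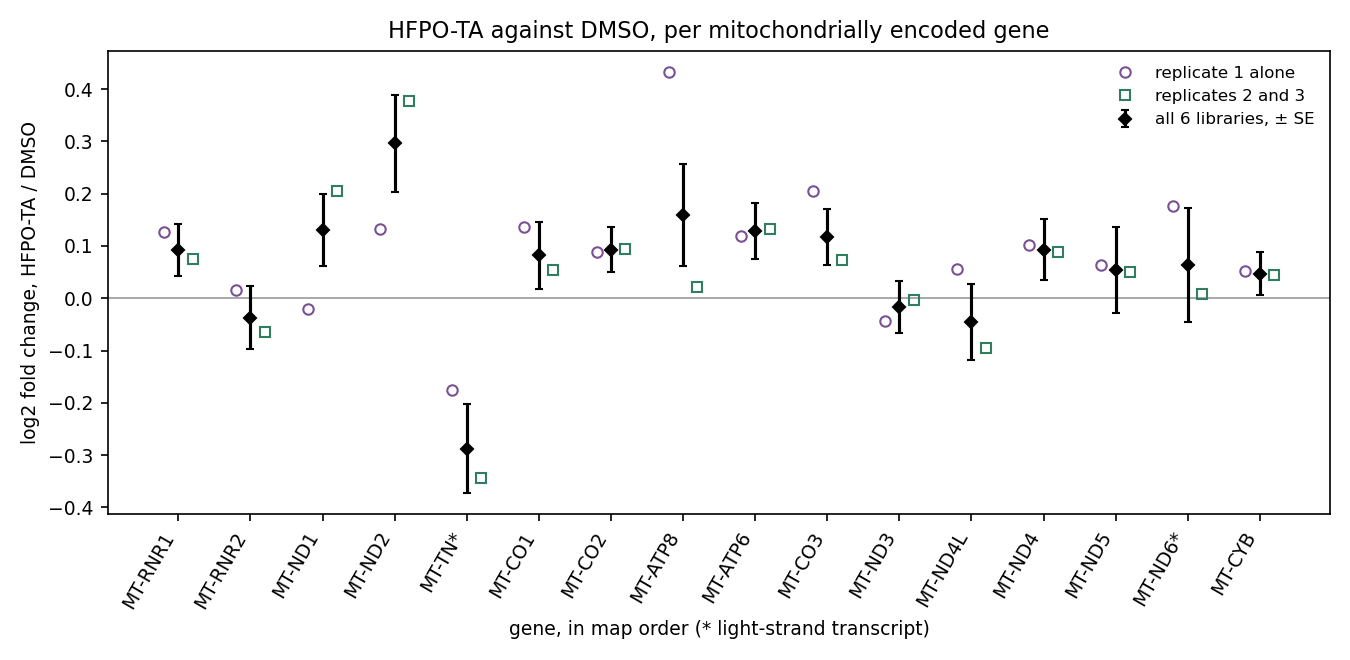
Log2 fold changes of HFPO-TA over DMSO are shown for the 16 genes above the filter in map order, with filled diamonds for all 6 libraries and bars of ± 1 SE, circles for replicate 1 alone and squares for replicates 2 and 3. MT-ND2 lies highest at 0.30 and MT-TN lowest at -0.29, and MT-ATP8, MT-ND2 and MT-ND1 differ most between replicate 1 and the other replicates.

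Within the mRNA pool the share of complex I genes was 44.2% ± 0.46 with HFPO-TA and 44.9% ± 0.51 with DMSO (SD, n = 3 each; exact permutation test, p = 0.2). Complex IV genes held 37.3% ± 0.50 with HFPO-TA and 37.1% ± 0.79 with DMSO. Complex V genes held 15.7%, 16.0% and 15.4% with HFPO-TA and 13.6%, 15.7% and 15.7% with DMSO, with the DMSO replicate 1 library the low one. The complex I share differed by -0.735 percentage points, and by 0.12 in the other direction without MT-ND4L and MT-ATP8, the short reading frames that overlap a neighbour. For the overlapping frames themselves, the ratio of MT-ND4L to MT-ND4 was 1.43, 1.40 and 1.36 with HFPO-TA and 1.47, 1.56 and 1.59 with DMSO. All HFPO-TA ratios were lower (exact permutation test, p = 0.1, the smallest that 3 against 3 allows), by 0.045 within replicate 1 and by 0.19 within replicates 2 and 3. The ratio of MT-ATP8 to MT-ATP6 was 2.31 ± 0.12 with HFPO-TA and 2.27 ± 0.26 with DMSO (SD, n = 3 each; exact permutation test, p = 0.8). Reads in the shared bases belong to both frames, and how the authors' counting split them is not given in the sources used here, so the values of these 4 genes are uncertain.

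The rRNAs form the core of the mitochondrial ribosome, MT-RNR1 in the small subunit and MT-RNR2 in the large one. MT-RNR1 stood at 1505, 1440 and 1369 TPM with HFPO-TA and at 1380, 1338 and 1325 TPM with DMSO. MT-RNR2 stood at 7450, 6912 and 6391 TPM with HFPO-TA and at 7367, 7008 and 6889 TPM with DMSO. The groups overlapped for each (log2 fold changes 0.093, SE 0.050, adjusted p = 0.530, and -0.037, SE 0.060, adjusted p = 0.870). The ratio of MT-RNR2 to MT-RNR1 was 4.95, 4.80 and 4.67 with HFPO-TA and 5.34, 5.24 and 5.20 with DMSO. Every HFPO-TA ratio was lower (exact permutation test, p = 0.1), by 0.39 within replicate 1 and by 0.48 within replicates 2 and 3. The log2 ratio of rRNA to mRNA TPM was -2.77 ± 0.066 with HFPO-TA and -2.67 ± 0.078 with DMSO (SD, n = 3 each; exact permutation test, p = 0.2). As the library kit is unknown, this ratio is one of the libraries and not of the organelle. Over the 10 comparisons of shares and ratios whose exact permutation p is printed here, the smallest adjusted p was 0.333. Further shares, sums and ratios were compared in the same way and stand outside this family.

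MT-TN stood at 756, 667 and 598 TPM in the HFPO-TA libraries and at 855, 789 and 814 TPM in the DMSO libraries. All HFPO-TA values were lower, replicate 1 by the least. The mean was 674 ± 79.4 TPM with HFPO-TA and 819 ± 33.4 TPM with DMSO (SD, n = 3 each), a log2 fold change of -0.29 (SE 0.085, adjusted p = 0.228). The log2 difference was -0.18 within replicate 1 and -0.34 within replicates 2 and 3, and without HFPO-TA replicate 1 MT-TN was called lower (-0.37, adjusted p = 0.0382), where 1.26% of all genes were. MT-TN has 73 bases, fewer than MT-TL1 with 75, the tRNA for leucine, which was listed at 0. Of 1304 genes in the files whose longest GENCODE 29 transcript has at most 75 bases, 3 had a value above 0 in any library, and MT-TN alone averaged 100 TPM or more. How genes shorter than a fragment were scaled is not given in the sources used here, so the level of MT-TN is not set against that of the mRNAs.

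Several members have near-identical copies in the nuclear genome, and the authors' counting could split reads between a gene and its copy. MTCO1P12 stood at 1130, 993 and 933 TPM with HFPO-TA and at 1168, 1139 and 1170 TPM with DMSO, with all HFPO-TA values lower (log2 fold change -0.19, SE 0.071, adjusted p = 0.337). Without HFPO-TA replicate 1 it was called lower (-0.27, adjusted p = 0.0420). Of the TPM of MT-CO1 and MTCO1P12 together, the copy held 9.70%, 9.33% and 9.37% with HFPO-TA and 10.9%, 11.6% and 11.1% with DMSO. The groups did not overlap (exact permutation test, p = 0.1), and the difference was -1.17 percentage points within replicate 1 and -2.04 within replicates 2 and 3. The 2 genes together summed to 10753 TPM with HFPO-TA and 10345 TPM with DMSO on average. MTATP6P1, which differs from MT-ATP6 at 10 of 681 bases and lies on chromosome 1 from 633696 to 634376, held 9.49% ± 0.31 of the summed TPM of the pair with HFPO-TA and 9.36% ± 0.19 with DMSO (SD, n = 3 each; exact permutation test, p = 0.7). MTRNR2L1, an 88.5% identical copy of MT-RNR2 on chromosome 17, averaged 53.2 TPM with HFPO-TA and 55.8 TPM with DMSO. MTND2P28, 98.4% identical to MT-ND2, averaged 2.65 TPM with HFPO-TA and 2.28 TPM with DMSO. MTND4P12, 95.8% identical to MT-ND4, averaged 1.38 TPM with HFPO-TA and 1.15 TPM with DMSO. MTATP8P1, 97.6% identical to MT-ATP8, was listed at 0 in all HFPO-TA libraries and at 0, 15.4 and 8.33 TPM in the DMSO libraries, and did not pass the filter. The split of reads between MT-CO1, MT-ATP6 and their copies was not tested.

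**Figure D4:**
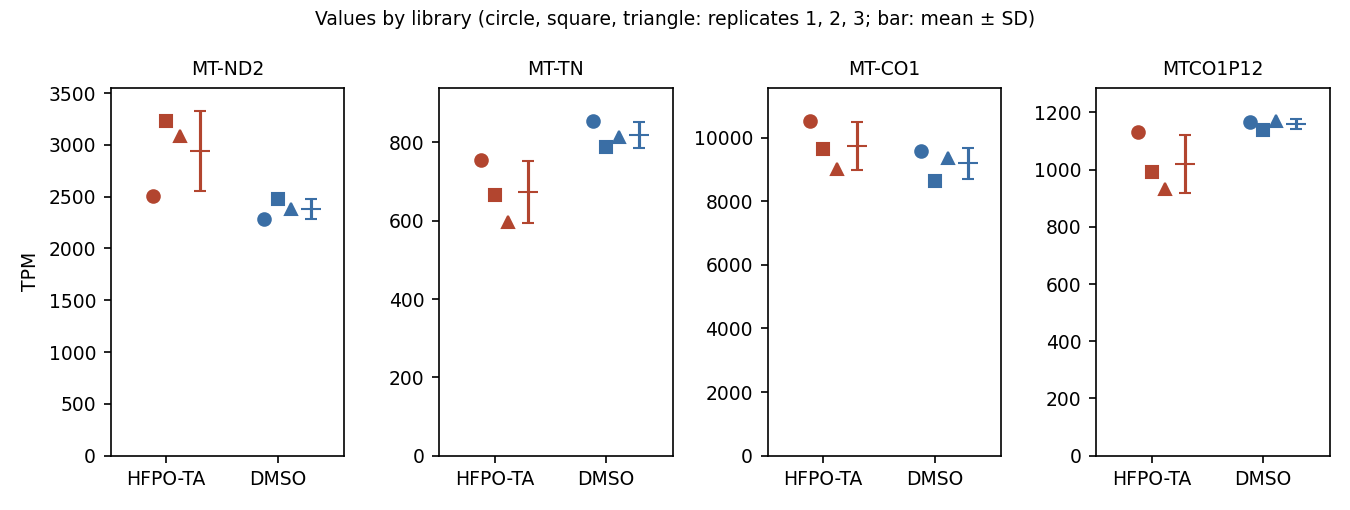
TPM of MT-ND2, MT-TN, MT-CO1 and its nuclear copy MTCO1P12 are shown for each library from an axis at 0, with HFPO-TA left of DMSO and mean ± SD beside the points. The groups do not overlap for MT-ND2 (higher with HFPO-TA) and for MT-TN and MTCO1P12 (lower), and they overlap for MT-CO1.

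Nuclear genes that transcribe, process, replicate and translate the mitochondrial genome were followed through lists of 73 genes, all above the filter. None was called in either direction. At an unadjusted p under 0.05 there were 8 with higher and 1 with lower means, against 12% of all genes in both directions together. The median log2 fold change of the 73 was 0.077. POLRMT, the mitochondrial RNA polymerase, averaged 33.3 ± 4.66 TPM with HFPO-TA and 35.8 ± 2.45 TPM with DMSO, and TFAM, which packages mitochondrial DNA and opens its promoters, 9.76 ± 1.37 TPM with HFPO-TA and 10.9 ± 0.61 TPM with DMSO (adjusted p = 0.776 and 0.706). TFB2M, the polymerase's initiation factor, stood at 16.2, 17.8 and 18.9 TPM with HFPO-TA and at 15.6, 12.7 and 11.6 TPM with DMSO, without overlap (log2 fold change 0.39, SE 0.13, adjusted p = 0.260; 0.053 within replicate 1 and 0.56 within replicates 2 and 3). MTERF2, of the termination factor family, had a log2 fold change of -0.16 (adjusted p = 0.635).

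Among genes of mitochondrial RNA processing and decay, PNPT1, the polynucleotide phosphorylase that degrades mitochondrial RNA, stood at 47.9, 43.1 and 37.9 TPM with HFPO-TA and at 59.3, 58.2 and 56.7 TPM with DMSO. All HFPO-TA values were lower (log2 fold change -0.43, SE 0.093, adjusted p = 0.108), and without HFPO-TA replicate 1 it was called lower (-0.51, adjusted p = 0.0339). RBFA, which matures the small ribosomal subunit, averaged 23.0 ± 1.62 TPM with HFPO-TA and 15.8 ± 2.22 TPM with DMSO (log2 fold change 0.52, SE 0.12, adjusted p = 0.116). Its log2 difference was 0.28 within replicate 1 and 0.64 within replicates 2 and 3. LRPPRC and SLIRP form the complex that stabilises mitochondrial mRNAs. LRPPRC averaged 27.3 ± 1.05 TPM with HFPO-TA and 22.9 ± 1.83 TPM with DMSO (adjusted p = 0.315), and SLIRP 189 ± 10.5 TPM with HFPO-TA and 181 ± 6.68 TPM with DMSO (adjusted p = 0.764).

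Replication, biogenesis and translation genes gave these values, none of which passed the test. LIG3, the mitochondrial DNA ligase, had a log2 fold change of 0.37 (adjusted p = 0.368) and POLG, the replicative polymerase, of -0.18 (adjusted p = 0.589). YY1, a transcription factor named among regulators of mitochondrial genes, had 0.34 (adjusted p = 0.231), and PPARGC1A, the coactivator known for driving mitochondrial biogenesis, stood at 1.91 ± 0.63 TPM with HFPO-TA and 1.32 ± 0.23 TPM with DMSO (adjusted p = 0.617). MTIF2 and MRRF, factors of mitochondrial translation, had 0.25 each (adjusted p = 0.375 and 0.381). Leaving out 1 library moved LIG3 between 0.24 and 0.46, POLG between -0.27 and -0.099 and PPARGC1A between 0.14 and 0.42. The log2 difference of PPARGC1A was 0.81 within replicate 1 and 0.058 within replicates 2 and 3. That of YY1 was 0.082 within replicate 1 and 0.46 within replicates 2 and 3, and that of LIG3 0.46 and 0.33.

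The nuclear subunits of the same complexes, 74 genes that were all tested, had 0 called genes. An unadjusted p under 0.05 was found for 19 with higher and 1 with lower means, beside 5.45% of all tested genes with higher means and 12% in both directions together. Their log2 fold changes had a median of 0.078 over 37 complex I genes, 0.11 over 9 complex III genes, 0.12 over 11 complex IV genes and 0.13 over 17 complex V genes, beside medians of the mitochondrial mRNAs of 0.064, 0.047, 0.093 and 0.14 for the same complexes. Above 0 in the pooled fit were 65 of the 74, beside 48.3% of all tested genes. Some of these 65 lay below 0 within replicate 1. UQCRB of complex III stood at 282, 311 and 306 TPM with HFPO-TA and at 244, 244 and 225 TPM with DMSO (log2 fold change 0.33, SE 0.063, adjusted p = 0.0763), and UQCRC2, a core subunit of complex III, had 0.29 (adjusted p = 0.175). NDUFA1 and NDUFA3, accessory subunits of complex I, had 0.23 and -0.39 (adjusted p = 0.175 and 0.115). COX5B and COX7B of complex IV had 0.21 and 0.29 (adjusted p = 0.203 and 0.240). ATP5PF, of the stalk of complex V, and ATP5F1B, its catalytic beta subunit, had 0.22 and 0.26 (adjusted p = 0.133 and 0.213). Within replicate 1 and within replicates 2 and 3 the log2 differences were 0.21 and 0.39 for UQCRB, and 0.093 and 0.39 for UQCRC2. They were 0.13 and 0.29 for NDUFA1, -0.30 and -0.43 for NDUFA3, 0.20 and 0.21 for COX5B, and 0.24 and 0.31 for COX7B. For ATP5PF they were 0.20 and 0.23, and for ATP5F1B 0.047 and 0.36. Without HFPO-TA replicate 1 there were 4 called nuclear subunit genes, all higher, in the fit that called 0.6% of all genes higher: UQCRB (adjusted p = 0.0329), ATP5F1B (adjusted p = 0.0411) and, named after their values were seen, CYC1 and ATP5F1D. The log2 difference of CYC1 was -0.031 within replicate 1 and 0.46 within replicates 2 and 3. For ATP5F1D it was 0.092 within replicate 1 and 0.70 within replicates 2 and 3.

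**Figure D5:**
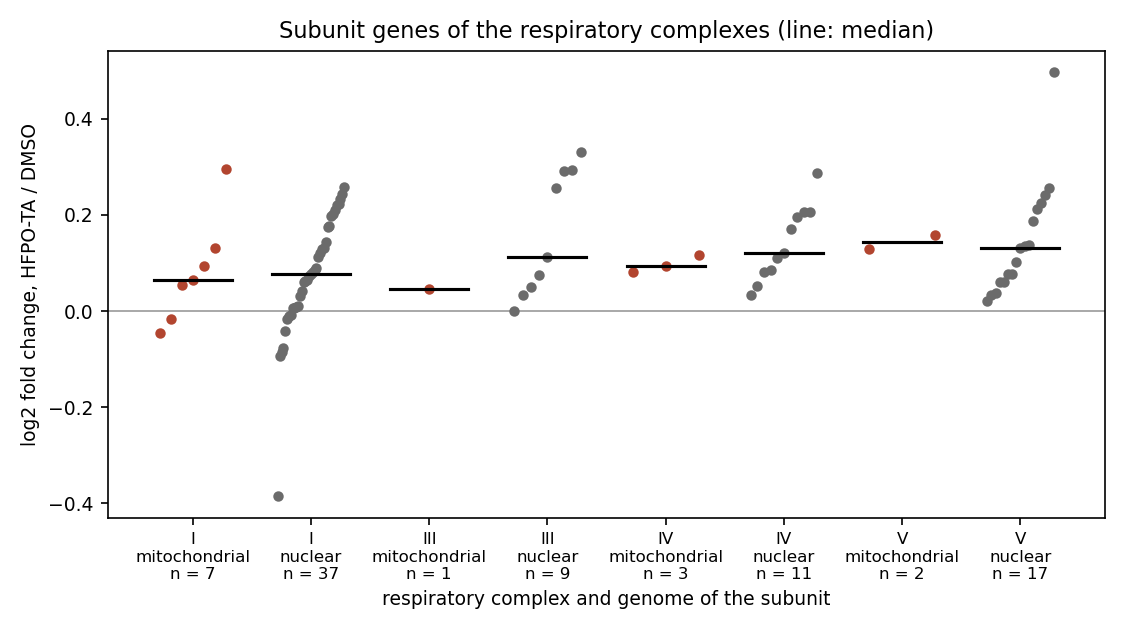
Each point is the log2 fold change of HFPO-TA over DMSO of 1 subunit gene, with mitochondrially encoded genes left of the nuclear genes of the same complex and a line at each median. All 8 medians lie above 0, between 0.047 and 0.14.

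Replicate 1 differed from the mean of replicates 2 and 3 to the same side in both groups for 14 of the 16 tested members, beside 62.1% of all tested genes. In some of the 14 it lay between the other replicates, as for MT-ND1 and MT-ND3 with HFPO-TA. The summed level of the stromal markers was also highest in replicate 1 of both groups. The log2 deviation of replicate 1 was 0.36 with HFPO-TA and 0.19 with DMSO for MT-ND6, 0.22 and 0.21 for MT-ND5, and -0.34 and -0.090 for MT-ND2. For MT-ATP8 it was 0.078 with HFPO-TA and -0.33 with DMSO, one of the 2 members that deviated to opposite sides. The part of this in the results was not tested beyond the values given within replicates.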

How the data were processed

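Each of the 6 files held 1 value per gene. The authors' deposited values are headed FPKM, but their sums are those of TPM, and they were used as TPM. Per the submitters' processing notes the tools include RSEM, HISAT and Bowtie2 and the build is GRCh38.p13. The sources used here do not give the annotation, library kit or strand handling. The filter of 1 TPM or more in any 3 libraries left 15664 genes, and log2(TPM + 1) was fitted with limma 3.58.1 in R 4.3.3, with treatment as the only term and a trended, robust variance, over all 6 libraries. The step was tested on simulated data, in which every planted change was larger than that of any member. That test does not tell whether changes of the size seen in the members would be called. Shares and ratios were compared by exact permutation over libraries in scipy 1.17.1, 2-sided. Those with a printed p were adjusted over their family of 10. Positions, gene types and sequences came from GENCODE 29, in which 58516 of 60623 gene identifiers were found. Copies were sought with blastn 2.17.0. Fold changes are HFPO-TA over DMSO. The members, lists and tests were chosen with earlier results of these data known. Named were all members above the filter, and of each nuclear list the 2 genes with the smallest p and any called, with POLRMT, TFAM, TFB2M, LRPPRC, SLIRP and PPARGC1A, and listed nuclear copies with a mean of at least 1 TPM. Alternatives covered the pseudocount, filter, variance, scaling, gene types, the replicate number as a block, each library left out and the file-name letter.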

Additional observations from a re-analysis of the deposited data

How the results depend on the processing

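With 0 mRNAs, tRNAs, machinery genes or nuclear subunit genes called in the fit reported, the same held with a pseudocount of 0.1, no filter, a mean of at least 5 TPM, another variance estimate, either scaling, protein-coding genes alone, the replicate block and a term for the file-name letter. Leaving out 1 library gave 0 to 1 mRNAs, 0 to 1 tRNAs, 0 to 1 machinery genes and 0 to 4 nuclear subunit genes, all above 0 without HFPO-TA replicate 1; replicates 2 and 3 alone gave 1 mRNA (MT-ND2) and 3 nuclear subunit genes. The cause was not tested. Over all genes, 77 were changed, against 10 without a filter, 11 with the other variance estimate, 30 with the replicate block, 30 with median-of-ratios scaling, 207 with the letter term, 222 from replicates 2 and 3 and 6 to 291 with 1 library left out. The mRNA median log2 fold change of 0.093 lay between 0.055 and 0.13 in every setting. The share of all TPM differed by 0.22 to 0.47 percentage points with 1 library left out, the complex I share by -0.97 to -0.47 (0.12 without MT-ND4L and MT-ATP8), and the log2 ratio of rRNA to mRNA by -0.14 to -0.063. The MT-ND6 ratio turned sign, from -0.15 to 0.044. Signs turned for members near 0: with 1 library left out MT-RNR2 ran from -0.092 to 0.018, MT-ND3 from -0.050 to 0.013 (also 0.0017), MT-ND4L from -0.12 to 0.011, MT-ND5 from -0.019 to 0.12, MT-ND6 from -0.056 to 0.15, MTND2P28 from -0.11 to 0.30 and MTND4P12 from -0.0050 to 0.28. Without a turn of sign, MT-RNR1 ran from 0.059 to 0.13, MT-ND1 from 0.089 to 0.21, MT-CO1 from 0.024 to 0.13, MT-ATP8 from 0.048 to 0.23, MT-ATP6 from 0.081 to 0.16, MT-ND4 from 0.049 to 0.13, MTRNR2L1 from -0.14 to -0.018, POLRMT from -0.21 to -0.044, TFAM from -0.25 to -0.090 and SLIRP from 0.021 to 0.099. The ratio of MT-ATP8 to MT-ATP6 ran from -0.11 to 0.12 and that of MT-ND6 to MT-ND5 from -0.028 to 0.037 with 1 library left out, at -0.18 and -0.031 from replicates 2 and 3. The share of MTATP6P1 ran from -0.032 to 0.28.

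Replicate numbers were not taken as pairs in the fit reported. Deviations of same-numbered libraries correlated at 0.184, 0.123 and 0.028, and those of differently numbered libraries at -0.158 to 0.068. Whether the numbers stand for pairs was not tested. Median-of-ratios scaling left the median of all genes at 0.0021. TPM hide depth, so no difference could be weighed against counting error. The term for the letter, replicates 2 and 3 alone and the ratios of neighbouring genes were chosen after the data were seen.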

Other observations

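NRF1, the nuclear respiratory factor that activates genes of the respiratory chain, was chosen here after its values were seen. It stood at 25.9 TPM in HFPO-TA replicate 1, at 3.74 and 4.70 TPM in the other HFPO-TA libraries, and at 4.68, 4.87 and 4.62 TPM in the DMSO libraries. The mean difference rests on that 1 library (adjusted p = 0.776 with limma). MTND6P3 and MTND6P22, copies of MT-ND6 on chromosome 5, were also chosen after their values were seen. They stood higher in every HFPO-TA library without passing the test, and 8.55% of all tested genes stood so. MTND6P3 stood at 18.9, 17.9 and 15.9 TPM with HFPO-TA and at 10.9, 13.8 and 13.8 TPM with DMSO (log2 fold change 0.43, SE 0.12, adjusted p = 0.218). MTND6P22 had a log2 fold change of 0.49 (adjusted p = 0.304). MTND6P21, named as a copy of MT-ND6 on chromosome 21, went the other way with overlapping groups. It averaged 1.39 TPM with HFPO-TA and 2.13 TPM with DMSO (log2 fold change -0.50, adjusted p = 0.667 with limma). The copies MTND5P1, MTATP8P2 and MTCYBP21, also at 1 TPM or more on average, had overlapping groups.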
